A study of Mus musculus with 12 samples.

Results

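Malat1 is a long noncoding RNA that stays in the nucleus, and it was measured here in mouse colon tumours after a doxorubicin treatment. It is 1 of 12393 genes with a probe set of a single gene symbol on the arrays, and all 5 of its such probe sets, of 20380, were followed one by one. Malat1 was selected on its difference between CP-Dox and the other groups in these same arrays, so its own levels are given as a description without a test. The 12 tumours were C26 murine colon carcinomas grown under the skin of the flank of Balb/c mice, 6 weeks of age by the labels, and each array held total RNA of 1 tumour taken 48 h after treatment on day 8, at a size of about 50 mm3. The 4 CP-Dox mice received doxorubicin bound to a polypeptide carrier, the 4 Dox mice received free doxorubicin, and the 4 PBS mice received buffer. All groups shared the tumour line, the host strain and the sampling time. C26 is 1 line and cannot stand for other tumours, no group received the carrier alone, and the labels used here state no dose. The whole tumour with the host's blood vessels and immune cells was profiled, so fewer cells of a type and less RNA per cell cannot be told apart. Markers of skin and of muscle were high in some tumours and not in others.

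Doxorubicin slides into DNA and traps topoisomerase II, which breaks DNA and stalls transcription. Malat1 is transcribed by RNA polymerase II, its end is formed by RNase P cutting before a transfer-RNA-like sequence, and the long product gathers in nuclear speckles, where splicing factors are stored. Its neighbour Neat1 is the RNA scaffold of paraspeckles, bodies that lie beside the speckles and hold RNA-binding proteins. Both RNAs are abundant in most mammalian tissues, and Malat1 is best known for its high level in metastatic lung tumours.

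By RefSeq on GRCm38.p6, Malat1 is a lncRNA gene of 6983 bases on the minus strand of chromosome 19, from 5795690 to 5802672. Its promoter, 250 bases before to 50 bases after the start at chr19:5802623-5802922, is shown for the annotated start. Whether the measured RNA came from this start was not tested. The capitals mark the CREB and ATF core TGACG read on either strand.
Malat1: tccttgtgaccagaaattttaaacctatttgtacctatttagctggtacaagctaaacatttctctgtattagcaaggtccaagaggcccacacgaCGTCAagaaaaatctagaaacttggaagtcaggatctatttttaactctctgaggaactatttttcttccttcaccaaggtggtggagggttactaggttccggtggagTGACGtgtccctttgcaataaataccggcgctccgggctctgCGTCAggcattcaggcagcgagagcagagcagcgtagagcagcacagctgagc
The core stands 3 times in this window, at positions -154, -45 and -3 from the start, and 20.8% of the 32851 mouse promoters of the same length hold it at least once. The TATA box TATAAA had 0 matches on either strand here and is held by 13.6% of all promoters, and the CCAAT box had 0 matches and is held by 37.4%. The Sp1 box GGGCGG had 0 matches and is held by 35.7% of all promoters, and the E box of letters CACGTG had 0 matches and is held by 7.15%. The p53 response element, searched as single decamers, had 0 matches, with 8.36% over all promoters. These matches describe letters in the window.

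Malat1 differed most between groups by 3 of its probe sets, with every CP-Dox tumour above every Dox and PBS tumour. The Dox and PBS tumours overlapped for each of these 3. The signals are log2 values, in which 1 unit stands for a 2-fold change. Probe set 1418188_a_at read 8.10, 7.90, 7.40 and 6.92 in the CP-Dox tumours, 5.08, 5.81, 4.88 and 5.08 in the Dox tumours, and 4.91, 5.03, 4.54 and 6.08 in the PBS tumours. The lowest CP-Dox tumour, replicate 4, was above the highest tumour of either other group, and PBS replicate 4 was the highest of the PBS tumours. The means were 7.58 ± 0.53 in CP-Dox, 5.21 ± 0.41 in Dox and 5.14 ± 0.66 in PBS (SD, n = 4 each). The CP-Dox mean was 2.44 ± 0.34 above PBS on the log2 scale (SE), or 5.42-fold, and 2.37 ± 0.34 above Dox, or 5.16-fold. Dox differed from PBS by 0.07 ± 0.34, less than the spread between tumours of a group. The files give no detection calls, and 54.2% of the 20380 probe sets had a lower CP-Dox mean than 1418188_a_at, against 19.6% for its Dox mean and 18.3% for its PBS mean. Whether its Dox and PBS signals exceed background was not tested, so its folds, and those of the other Malat1 probe sets, may understate the change.

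Probe set 1418189_s_at read 7.58, 7.83, 7.21 and 6.87 in CP-Dox, 5.38, 6.39, 5.12 and 5.30 in Dox, and 5.12, 5.83, 5.07 and 5.80 in PBS. Dox replicate 2 was the highest of the 8 tumours outside CP-Dox and still lay 0.49 below the lowest CP-Dox tumour. CP-Dox averaged 7.37 ± 0.42, Dox 5.55 ± 0.57 and PBS 5.46 ± 0.42 (SD, n = 4 each), a difference of 1.92 ± 0.30 for CP-Dox against PBS, or 3.78-fold. CP-Dox against Dox gave 1.83 ± 0.30 and Dox against PBS 0.09 ± 0.30 on the log2 scale. Dox replicate 2 was also above every PBS tumour. The means of 1418189_s_at exceeded those of 51.3% of probe sets in CP-Dox, 25.8% in Dox and 24.2% in PBS.

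Probe set 1438403_s_at read 8.32, 8.02, 8.28 and 7.53 in CP-Dox, 6.14, 6.52, 5.89 and 6.47 in Dox, and 6.19, 6.46, 6.02 and 7.27 in PBS. PBS replicate 4 came within 0.26 of the lowest CP-Dox tumour, so this probe set kept the narrowest gap of the 3 between CP-Dox and PBS. CP-Dox averaged 8.04 ± 0.36, Dox 6.26 ± 0.29 and PBS 6.49 ± 0.56 (SD, n = 4 each). CP-Dox exceeded PBS by 1.55 ± 0.27, or 2.93-fold, and Dox by 1.78 ± 0.27, or 3.44-fold. Dox minus PBS was -0.23 ± 0.27 on the log2 scale, and Dox replicate 3 was below every PBS tumour. The means of 1438403_s_at exceeded those of 61.0% of probe sets in CP-Dox, 37.2% in Dox and 40.5% in PBS.

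The other 2 probe sets read much smaller differences, and their means exceeded those of 13.8% to 22.1% of probe sets in any group. By the platform annotation these 2 probe sets are listed under the same sequence record. Probe sets 1418188_a_at and 1418189_s_at share another record, and 1438403_s_at has a record of its own. The stretches of RNA that the probe sets read were not compared. Whether they account for the smaller differences was not tested. Probe set 1452378_at read 5.33, 5.29, 5.35 and 5.25 in CP-Dox, 5.10, 5.22, 4.73 and 4.89 in Dox, and 5.05, 4.77, 4.81 and 5.02 in PBS. Its CP-Dox tumours hardly varied and lay above all others, but only 0.03 above the highest Dox tumour. CP-Dox minus PBS was 0.39 ± 0.11, or 1.31-fold, and CP-Dox minus Dox 0.32 ± 0.11. Probe set 1427285_s_at read 5.11, 5.31, 4.97 and 4.96 in CP-Dox, 5.11, 5.05, 5.18 and 5.25 in Dox, and 4.97, 5.14, 4.93 and 5.16 in PBS. Its groups overlapped throughout, with CP-Dox minus PBS at 0.04 ± 0.10 and CP-Dox minus Dox at -0.06 ± 0.10 on the log2 scale.

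**Figure D1:**
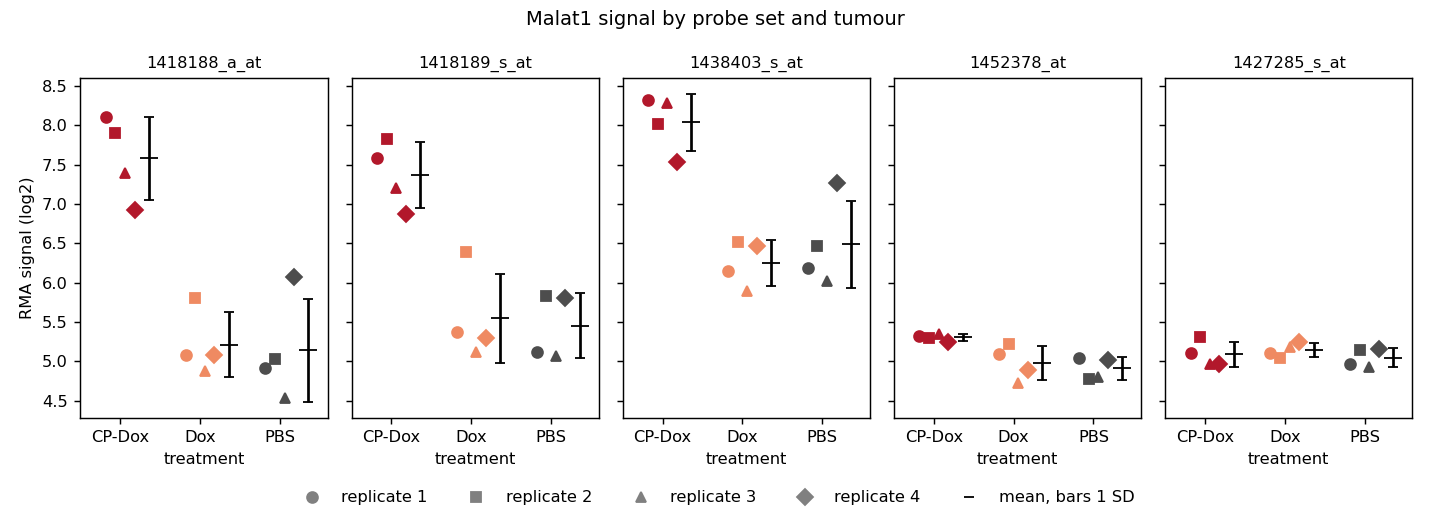
RMA signal (log2) of each Malat1 probe set in each tumour, by treatment; symbols mark the replicate, the horizontal line the mean and the bars 1 SD (n = 4). In the first 3 panels the CP-Dox tumours stand above all Dox and PBS tumours, in the fourth by a small step, and in the fifth the groups overlap.

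Every CP-Dox tumour was above every PBS tumour for 4 of the 5 probe sets, and above every Dox tumour for the same 4. Over all 20380 probe sets, 4.15% had every CP-Dox tumour above every PBS tumour and 3.38% had every CP-Dox tumour above every Dox tumour. Malat1 was chosen by this contrast, so nothing is read from these shares. For CP-Dox against PBS, 21, 52 and 102 probe sets had a larger log2 difference than 1418188_a_at, 1418189_s_at and 1438403_s_at, whereas 2063 and 7680 exceeded 1452378_at and 1427285_s_at. The last pair marks the edge between the probe sets that separated CP-Dox from PBS and the one that did not. Without CP-Dox replicates 1 and 3, whose skin markers were high as given with the marker lists, the CP-Dox minus PBS differences were 2.27, 1.90, 1.29, 0.36 and 0.09 on the log2 scale in the order given above.

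**Figure D2:**
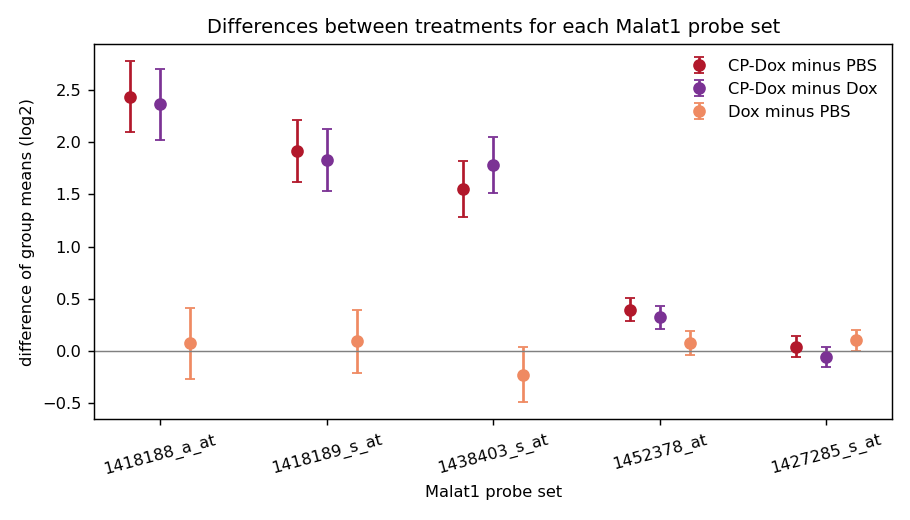
Difference of group means (log2) for each Malat1 probe set; points are CP-Dox minus PBS, CP-Dox minus Dox and Dox minus PBS, and bars are 1 SE from the fit over all 12 arrays. The first 3 probe sets lie between 1.55 and 2.44 for both CP-Dox contrasts, and Dox minus PBS lies between -0.23 and 0.10 for all 5.

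The 3 probe sets with large differences were positively correlated over tumours other than CP-Dox, and 1 of their 3 pairs passed the test. The CP-Dox tumours form a cluster of their own, so agreement was computed over the 8 Dox and PBS tumours, with exact two-sided permutation tests over all 10 pairs of probe sets. 1418188_a_at and 1438403_s_at had r = 0.86 (exact permutation p = 0.00273, 0.0273 after Benjamini-Hochberg adjustment) and rho = 0.83 (exact permutation p = 0.0154, adjusted 0.109). Without the 2 tumours farthest from the median of 1418188_a_at, PBS replicate 4 and Dox replicate 2, r was 0.60. 1418188_a_at and 1418189_s_at, which are listed under the same sequence record, had r = 0.79 (exact permutation p = 0.0252, adjusted 0.126) and rho = 0.81 (exact permutation p = 0.0218, adjusted 0.109). Their r was 0.57 without those 2 tumours. 1418189_s_at and 1438403_s_at had r = 0.60 (exact permutation p = 0.111, adjusted 0.293) and rho = 0.76 (exact permutation p = 0.0368, adjusted 0.123). Without the 2 tumours farthest from the median of 1418189_s_at, here Dox replicate 2 and PBS replicate 2, r was 0.93. PBS replicate 4, the highest of the 8 tumours on 1438403_s_at, stayed in here. The r of 0.93 is therefore not comparable with the 0.60 and 0.57 above. Of the 10 pairs, 1 passed after adjustment, by r and not by rho. Probe set 1452378_at correlated with these 3 at r between 0.35 and 0.61, and 1427285_s_at with the other 4 at r between -0.25 and 0.32, none past the adjusted threshold. Within groups, over the deviations of all 12 tumours from their group means, the 3 pairs had r of 0.82, 0.87 and 0.64. The mean of the 5 centred probe sets ran from 0.47 to 1.05 in CP-Dox, from -0.68 to -0.04 in Dox and from -0.76 to 0.03 in PBS, with CP-Dox replicate 4 the lowest of its group and PBS replicate 4 the highest.

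Neat1, which lies 22036 bases from Malat1 on chromosome 19, did not pass the test in any comparison. Neat1 read 8.46, 8.27, 7.79 and 7.49 in CP-Dox, 7.48, 7.95, 7.73 and 7.78 in Dox, and 7.70, 7.76, 6.80 and 7.24 in PBS. CP-Dox replicates 1 to 3 were above all PBS tumours, and the CP-Dox and Dox tumours overlapped. CP-Dox minus PBS was 0.63 ± 0.24 (limma, adjusted p = 0.152), CP-Dox minus Dox 0.27 (limma, adjusted p = 0.601) and Dox minus PBS 0.36 (limma, adjusted p = 0.995). Over the 12 tumours Neat1 had r = 0.63 with the Malat1 mean of the 5 probe sets, and r = 0.53 within groups. Xist, the nuclear RNA that coats the inactive X chromosome, was 0.30 higher in CP-Dox than in PBS (limma, adjusted p = 0.453), with r = 0.47 and 0.22 within groups, and its 3 probe sets ranged from -0.02 to 0.50.

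The measured genes beside Malat1 had a median difference of 0.05 on the log2 scale for CP-Dox against PBS, against -0.04 over all genes. Of 19 listed neighbours on both sides, 14 were measured and 0 passed the limma test, where 2.35% of all genes rose and 3.23% fell, so that a count of 0 is near the share over all genes. The gene after Neat1, Frmd8, was 0.20 higher (limma, adjusted p = 0.337), Dpf2, a chromatin remodelling subunit, 0.16 (limma, adjusted p = 0.328) and Ehbp1l1 0.12 (limma, adjusted p = 0.687). Pola2, a subunit of DNA polymerase alpha, was at -0.47 ± 0.14 (limma, adjusted p = 0.0734), Znrd2 at -0.38 ± 0.12 (limma, adjusted p = 0.0862) and Sipa1, a regulator of Rap proteins, at -0.37 (limma, adjusted p = 0.169).

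**Figure D3:**
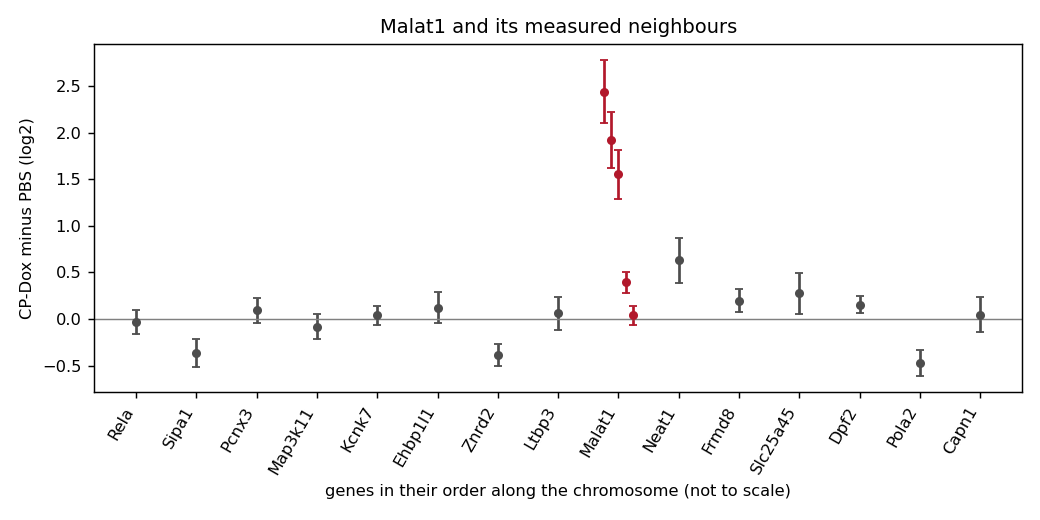
CP-Dox minus PBS (log2, bars 1 SE) for Malat1's 5 probe sets and 14 measured neighbours in their order along the chromosome, not to scale. Malat1 probe sets reach 2.44, and the neighbours lie between -0.47 and 0.63.

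The other genes of nuclear RNA were followed as 4 lists, of which 104 of 135 listed genes were measured. For CP-Dox against PBS, 14 of the 104 fell and 0 rose at an adjusted p under 0.05 (42 at an unadjusted p under 0.05), with a median of -0.15. Over all 12393 genes, 3.23% fell and 2.35% rose, with a median of -0.04. Leaving out 1 tumour moved the count of 14 to 3 without CP-Dox replicate 1 or 3, to 26 without CP-Dox replicate 2 (24 fell and 2 rose), to 5 without PBS replicate 1 or 2, to 3 without PBS replicate 3, to 7 without Dox replicate 3 and to 9 without Dox replicate 1 or 4. It fell to 0 without CP-Dox replicates 1 and 3 together. For CP-Dox against Dox, where 0.226% of all genes were called in limma, 0 of the 104 passed (25 at an unadjusted p under 0.05). For Dox against PBS, 0 of the 104 passed (3 at an unadjusted p under 0.05), and 0% of all genes passed in limma (558 at an unadjusted p under 0.05). The 3 comparisons share tumours and are not independent.

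The 17 measured long noncoding RNAs, of 38 listed, had a median of 0.10 for CP-Dox against PBS, and 11 had a positive difference. The limma test passed 0 of them, a count near the share over all genes (2.35% rose and 3.23% fell). Gas5, a host of small nucleolar RNAs, was at 0.45 ± 0.14 (limma, adjusted p = 0.0907), with 3 of its 4 probe sets positive and a range from -0.16 to 0.53. The small nucleolar RNA hosts Snhg5 and Snhg1 were at 0.76 ± 0.34 (limma, adjusted p = 0.211) and 0.51 (limma, adjusted p = 0.149), and the 5 Snhg1 probe sets ranged from -0.22 to 0.51. Tsix, the antisense partner of Xist, was at -0.19 (limma, adjusted p = 0.122). Norad, an RNA that binds Pumilio proteins, was at 0.10 (limma, adjusted p = 0.687), and at -0.02 without CP-Dox replicate 2. Its 3 probe sets disagreed, with a range from -0.29 to 0.69.

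Of 20 measured paraspeckle proteins, 3 fell and 0 rose for CP-Dox against PBS (3.23% and 2.35% over all genes), with a median of -0.21 (-0.04 over all genes). Tardbp, an RNA-binding protein also called TDP-43, read 9.97, 10.12, 9.69 and 10.29 in CP-Dox, against 10.68, 10.87, 10.72 and 10.47 in PBS, and CP-Dox minus PBS was -0.67 ± 0.15 (limma, adjusted p = 0.0295). All of its 4 probe sets were negative. Srsf10 was at -0.63 ± 0.16 (limma, adjusted p = 0.0398) and Hnrnpr at -0.41 ± 0.11 (limma, adjusted p = 0.0484). Sfpq, a core paraspeckle protein, was at -0.56 (limma, adjusted p = 0.0829), and Dazap1 at -0.48 (limma, adjusted p = 0.0646). Tardbp, Srsf10 and Hnrnpr each lost their call without CP-Dox replicate 1, without CP-Dox replicate 3 and without some other single tumours.

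Of 42 measured speckle and splicing factors, 8 fell and 0 rose for CP-Dox against PBS (3.23% and 2.35% over all genes), with a median of -0.18 (-0.04 over all genes). Srsf1, a serine and arginine rich splicing factor that Malat1 is reported to bind, read 11.28, 11.55, 11.20 and 11.69 in CP-Dox, 11.64, 11.81, 11.99 and 12.09 in Dox, and 12.06, 12.23, 12.09 and 12.08 in PBS. Every CP-Dox tumour lay below every PBS tumour, CP-Dox replicate 4 overlapped the lowest Dox tumour, and all 6 Srsf1 probe sets were negative. CP-Dox minus PBS was -0.69 ± 0.13 (limma, adjusted p = 0.0121), and the call held in each of the 12 fits without 1 tumour. Srsf2 and Srsf3, of the same family, were both at -0.60 (limma, adjusted p = 0.0243 and 0.0255), Srsf6 at -0.50 (limma, adjusted p = 0.0346) and Pnn, a protein of speckles and cell junctions, at -0.52 (limma, adjusted p = 0.0347). Each of these 4 lost its call without some single tumours, among them CP-Dox replicate 1 and CP-Dox replicate 3 for all 4. Of 6 Srsf3 probe sets, 5 were negative, and they ranged from -0.70 to 0.13.

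Of 25 measured genes for processing and turnover of nuclear noncoding RNA, 3 fell and 0 rose for CP-Dox against PBS (3.23% and 2.35% over all genes). Their median was -0.16 (-0.04 over all genes). Exosc2, a subunit of the RNA exosome, read 8.14, 8.21, 8.15 and 8.22 in CP-Dox, 8.46, 8.43, 8.73 and 8.74 in Dox, and 8.68, 8.69, 8.79 and 8.93 in PBS. The CP-Dox tumours lay below all Dox and PBS tumours, and CP-Dox minus PBS was -0.59 ± 0.10 (limma, adjusted p = 0.00702). Ncbp2, of the cap-binding complex, was at -0.65 ± 0.11 (limma, adjusted p = 0.00988). Rpp30, a subunit of the RNase P that cuts Malat1's end, was at -0.56 ± 0.14 (limma, adjusted p = 0.0409), and its other probe set was at -0.04. The RNase P subunits Pop7 and Pop5 were at -0.32 (limma, adjusted p = 0.0625) and -0.76 (limma, adjusted p = 0.079), and the other Pop5 probe set was at -0.21. Exosc2 and Ncbp2 kept their calls in each of the 12 fits without 1 tumour, and Rpp30 in 3 of 12.

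**Figure D4:**
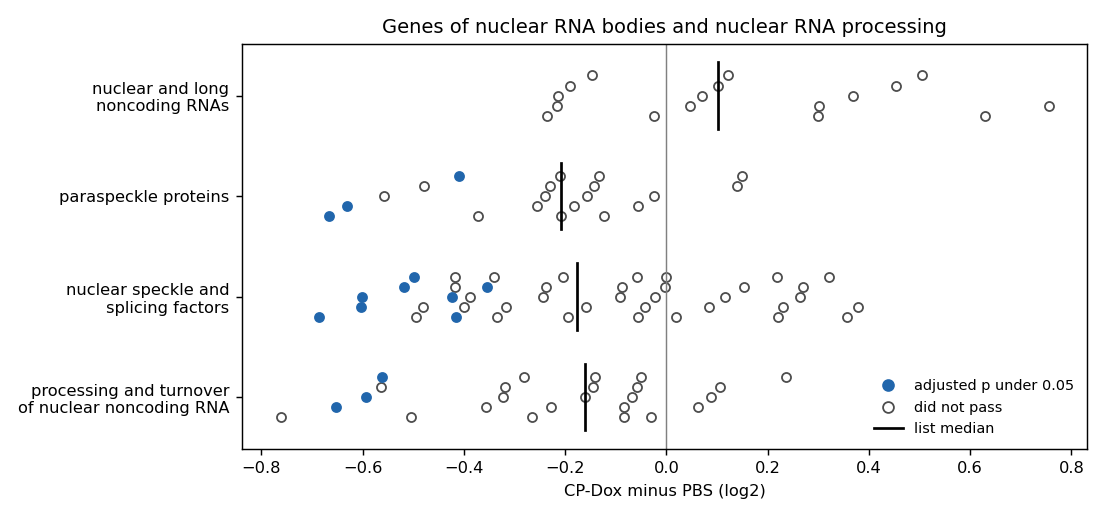
CP-Dox minus PBS (log2) for each measured gene of 4 lists (17, 20, 42 and 25 genes); filled points passed an adjusted p under 0.05, open points did not, and the black line is the list median. All 14 filled points lie below 0, between -0.69 and -0.36.

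Of 17 measured proteins reported to bind Malat1 or to act with it, 3 fell and 0 rose, with a median of -0.31. Over all genes 3.23% fell and 2.35% rose, with a median of -0.04. Srsf1 and Sfpq are also members of the speckle and paraspeckle lists. Mybl2, a transcription factor of dividing cells, read 6.16, 5.52, 6.05 and 6.32 in CP-Dox, 6.89, 6.45, 7.21 and 7.05 in Dox, and 7.11, 7.53, 7.23 and 7.05 in PBS, and CP-Dox minus PBS was -1.22 ± 0.20 (limma, adjusted p = 0.00702). Both Mybl2 probe sets were negative, and every CP-Dox tumour was below every Dox and PBS tumour. Hnrnpc, a protein that packages nascent RNA, was at -0.31 ± 0.06 (limma, adjusted p = 0.0188), and Srsf1 was the third to pass. Mybl2 kept its call in each of the 12 fits without 1 tumour and Hnrnpc in 9.

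The levels of other genes were set beside the Malat1 mean of the 5 centred probe sets over the 12 tumours, among 4468 genes with an SD of at least 0.25. They were chosen for their likeness to Malat1, so their differences are a description. The 8 most alike were Sulf2 (r = 0.92), Kit (r = 0.92), Anxa8 (r = 0.90), Ap3s1 (r = 0.87), Saa1 (r = 0.87), A4galt (r = 0.86), Gpr153 (r = 0.86) and Tfpi2 (r = 0.85). Within groups their r was lower, from 0.62 for Sulf2 to 0.21 for Tfpi2. Kit, the receptor for stem cell factor and a marker of mast cells, spanned 7.61 to 7.96 in CP-Dox, 6.33 to 7.26 in Dox and 6.33 to 6.56 in PBS. Sulf2, an enzyme that removes sulfate from heparan sulfate, spanned 8.79 to 9.59 in CP-Dox, 8.02 to 8.74 in Dox and 7.56 to 8.01 in PBS. The 5 most opposite were Anp32e (r = -0.97), Pa2g4 (r = -0.95), Adsl (r = -0.95), Dis3 (r = -0.94) and Mthfd1 (r = -0.94), and within groups they had r from -0.90 for Pa2g4 to -0.66 for Dis3. Dis3, a catalytic subunit of the RNA exosome, spanned 9.03 to 9.32 in CP-Dox, 9.71 to 9.99 in Dox and 9.70 to 10.15 in PBS, and Anp32e, a histone chaperone, 10.18 to 10.50 in CP-Dox, 10.86 to 11.03 in Dox and 10.82 to 11.23 in PBS.

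**Figure D5:**
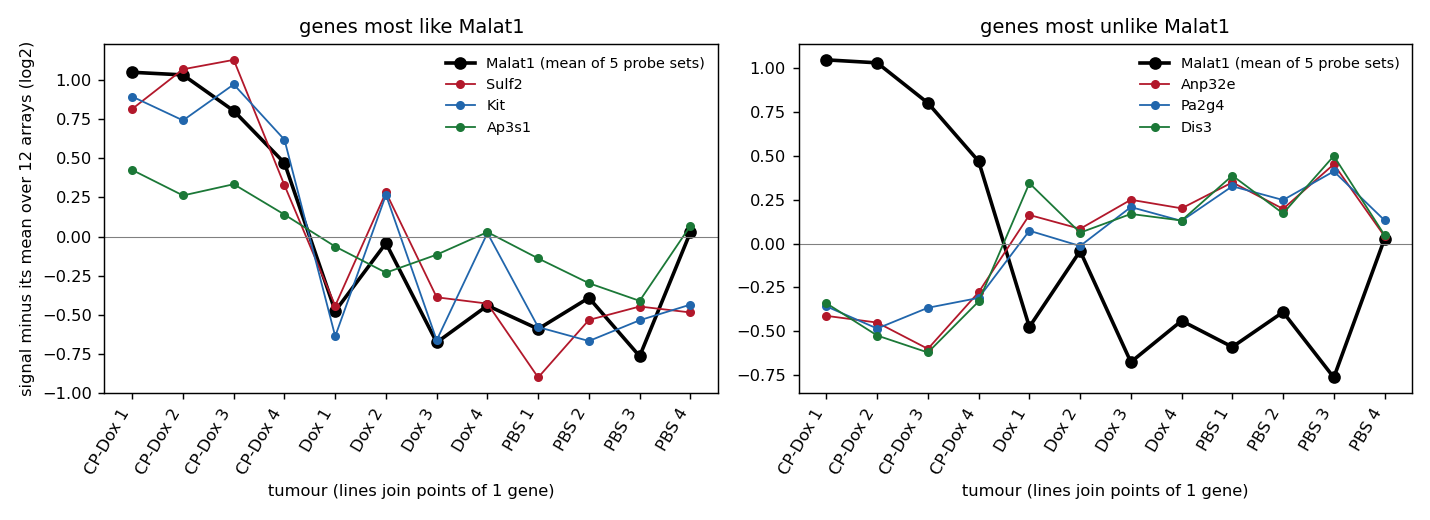
Signal of each gene minus its mean over the 12 tumours (log2), by tumour, for Malat1 (black, mean of 5 probe sets) with 3 of the most alike genes on the left and 3 of the most opposite on the right. Malat1 is above 0 in all CP-Dox tumours and in PBS replicate 4, and Anp32e, Pa2g4 and Dis3 are below 0 in all CP-Dox tumours.

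Other measures moved with CP-Dox beside Malat1, and their part in the Malat1 levels was not tested. Of 21 measured p53 targets, 10 rose for CP-Dox against PBS, where 2.35% of all genes rose. Their list mean relative to PBS was 0.48 to 1.44 in CP-Dox and 0.22 to 0.62 in Dox, against -0.11 to 0.15 in PBS, so that it was above PBS in all Dox tumours, where Malat1 overlapped PBS. Of 10 mast cell markers, 9 rose, with list means of 1.13 to 1.71 in CP-Dox, -0.31 to 1.07 in Dox and -0.43 to 0.28 in PBS. Dox replicate 4 had the mast cell mean of 1.07 while 1418188_a_at read 5.08. Endothelial markers also set CP-Dox apart, with list means of 0.43 to 0.55 in CP-Dox, 0.02 to 0.30 in Dox and -0.22 to 0.14 in PBS. Their Dox and PBS tumours overlapped, and 3 of 14 endothelial markers rose for CP-Dox against PBS. Of 8 adipocyte markers 2 rose, with list means of 0.42 to 0.98 in CP-Dox, -0.10 to 0.79 in Dox and -0.32 to 0.36 in PBS. Of 9 neutrophil markers 2 rose, with list means of 0.16 to 1.13 in CP-Dox, -0.09 to 0.85 in Dox and -0.21 to 0.16 in PBS. The median neutrophil marker differed by only 0.01 for CP-Dox against PBS, and 5 of the 9 were positive, so the list did not move as a whole. Of 13 fibroblast markers 2 rose, with list means of 0.24 to 0.64 in CP-Dox, -0.19 to 0.32 in Dox and -0.11 to 0.12 in PBS. Of 4 erythroid markers 1 fell, where 3.23% of all genes fell, with list means of -0.61 to -0.35 in CP-Dox, -0.58 to -0.36 in Dox and -0.10 to 0.17 in PBS. The erythroid means were thus as low in Dox as in CP-Dox. Skin markers were high in CP-Dox replicates 1 and 3 alone, at 2.90 and 4.06. They were at 0.07 and -0.14 in CP-Dox replicates 2 and 4 and at most 0.08 in Dox and PBS. On 1418188_a_at, all 4 CP-Dox tumours lay above every Dox and PBS tumour. Muscle markers ran from -0.57 to 1.70 in CP-Dox, from -2.37 to -2.35 in Dox replicates 1, 3 and 4, higher in Dox replicate 2, and from -2.47 to 3.29 in PBS. The 5' probe set of 18S ribosomal RNA read 12.04, 10.59, 9.72 and 7.49 in CP-Dox and 6.11 to 7.14 in Dox. In PBS it read 12.28, 5.59, 9.13 and 9.63. The 3' probe set of 18S read 7.59 to 8.00 in CP-Dox, 7.08 to 7.40 in Dox and 6.45 to 10.10 in PBS. The middle one read 6.61 to 7.32 in CP-Dox, 5.91 to 6.39 in Dox and 5.47 to 9.48 in PBS. On each, every CP-Dox tumour was above every Dox tumour, and PBS spanned both groups. PBS replicate 1, the highest on each, read 4.91 on 1418188_a_at. The 3' minus 5' difference of the actin control lay between 0.38 and 0.64 on all arrays. CP-Dox replicate 2 correlated with its own group at a mean r of 0.948 and the other 11 arrays at 0.971 to 0.990. Of 15 measured colon epithelium markers, 1 rose for CP-Dox against PBS, near the share of 2.35% over all genes.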

How the data were processed

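The labels name 12 Affymetrix arrays of C26 tumours, 4 mice in each of CP-Dox, Dox and PBS. The authors deposited 22690 log2 signals per array, and the submitters' processing notes name RMA and Partek without order or version. The versions are not given in the sources used here. Arrays carry no read depth, so the number of mice limits the precision. Probe sets were named through GEO's platform annotation: 20380 had 1 symbol, 691 several, 1555 none and 64 were controls.

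Each gene was tested through its probe set of highest mean with limma 3.58.1 in R 4.3.3 on all 12 arrays, with group means in the model and Benjamini-Hochberg adjustment over 12393 genes. Malat1 was fitted over the 20380 probe sets for description. The code was tested on simulated data with known changes. Named genes were every Malat1 probe set, Neat1, Xist, neighbours, up to 5 members of each list with the lowest p in a comparison, and the 8 most and 5 least alike genes. Malat1 and the lists were chosen with earlier results of these data known. The planned agreement of probe sets over all 12 arrays was replaced by values within groups and over the 8 Dox and PBS arrays, since CP-Dox arrays stood apart. Alternatives were another quantile normalization, median centring, a filter on dim probe sets, 2 groups alone, a replicate block, a trend with robust estimation, array weights, the mean of all probe sets per gene, and arrays left out.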

Additional observations from a re-analysis of the deposited data

Results flagged for a closer look

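In 162 groups of 4 tumours, 4 had a tumour whose gap to the nearest of the others passed Dixon's critical share of the group's range, and chance gives about 1 in 20. No Malat1 probe set was among them. Xist in PBS had a ratio of 0.905, with PBS replicate 4 at 8.17 and the others between 7.08 and 7.19. Srsf1 in PBS had a ratio of 0.852, with PBS replicate 2 at 12.23 and the others between 12.06 and 12.09. Rpp30 in Dox had a ratio of 0.925, with Dox replicate 2 at 9.86 and the others between 10.26 and 10.29. Sulf2 in Dox had a ratio of 0.926, with the same tumour at 8.74 and the others between 8.02 and 8.07.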

How the results depend on the processing

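Over the 19 alternatives run on probe sets (the dim filter and the mean of all probe sets per gene were not run on them), CP-Dox minus PBS ran from 2.24 to 2.75 for 1418188_a_at, from 1.77 to 2.08 for 1418189_s_at, from 1.29 to 1.81 for 1438403_s_at from 0.34 to 0.44 for 1452378_at and from -0.03 to 0.09 for 1427285_s_at. For Dox minus PBS the sign of 4 probe sets turned within ranges such as -0.13 to 0.38 for 1418188_a_at. The counts of genes were less steady, and the cause was not tested. For CP-Dox against PBS, 691 genes passed, against 2665 with array weights, 198 with 2 groups alone, 2 without CP-Dox replicates 1 and 3, and 214 to 2363 without 1 tumour. For CP-Dox against Dox, 28 passed, against 44 with quantile normalization, 1960 with weights, 47 with the dim filter, 0 with 2 groups alone, 0 without CP-Dox replicates 1 and 3, and 1 to 1150 without 1 tumour. For Dox against PBS, 0 passed in limma (558 at an unadjusted p under 0.05), against 2 with quantile normalization, 2 with 2 groups alone, 1 without CP-Dox replicates 1 and 3, and 0 to 2 without 1 tumour. Of the nuclear genes, 14 passed for CP-Dox against PBS, against 32 with weights, 3 with 2 groups alone, 0 without CP-Dox replicates 1 and 3, and 3 to 26 without 1 tumour. For CP-Dox against Dox, 0 passed, against 20 with weights and 0 to 9 without 1 tumour. Median centring gave 204 genes that rose and 534 that fell for CP-Dox against PBS, against 291 and 400. Norad, reported at 0.10, turned to -0.0164 without CP-Dox replicate 2 and ran up to 0.1719 without 1 tumour. The median r of the 10 pairs of Malat1 probe sets was 0.47 within groups and 0.82 pooled over groups. The replicate block gave 995 genes for CP-Dox against PBS, 8 for CP-Dox against Dox and 0 for Dox against PBS, and 21 nuclear genes for CP-Dox against PBS. The replicate numbers name mice, the labels do not say how they were assigned, and the main fit took the mice as unpaired. Tumours of the same number had deviations correlated from -0.31 to 0.51, and not every tumour correlated best with its own number. For CP-Dox against Dox, replicates 1, 2 and 4 did so and replicate 3 did not. These correlations cannot tell whether tumours of the same number were handled together. With 4 tumours a group, the median SE of a gene's difference was 0.13.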
